A study of Homo sapiens with 6 samples.

Results

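The messenger RNAs described here encode 6 cytosolic translation factors (EEF1A1, EEF1G, EEF2, EIF4A1, EIF4A2 and PABPC1) and 2 abundant nucleolar proteins (NPM1 and NCL). They were chosen by name, with earlier results of these data already known. There was 1 Ensembl transcript ID per gene, and all 8 were found among the 203028 transcripts of each library's table. All 8 passed the filter on low counts. The libraries were made from polyadenylated RNA of HEK293 cells, an established human embryonic kidney line. In 3 libraries the cells carried an shRNA against PRPF39, a splicing factor that works with the U1 particle at 5′ splice sites, and in the other 3 they carried a scrambled control shRNA (Ctrl shRNA). Both shRNAs were delivered by lentivirus, and the cells of both groups were under puromycin selection for the integrated construct, per the labels' protocols. Whether the replicates came from separate cultures is not given in the labels, so every p-value here refers to the spread among these libraries, which may be technical. The PRPF39 shRNA libraries held 113747941 to 246491084 estimated counts and the Ctrl shRNA libraries 158588987 to 165751423. The levels of PRPF39 itself and of markers of the cell line were not analysed here, because nothing used here pairs their transcript IDs with genes.

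Protein synthesis starts when the eIF4F complex, which contains the RNA helicase eIF4A, opens the 5′ end of a messenger RNA, and the poly(A)-binding protein on the other end helps to recruit it. In elongation, eEF1A brings aminoacyl-tRNA to the ribosome, the eEF1B complex recharges eEF1A with GTP, and eEF2 moves the ribosome along by 1 codon. Nucleolin and nucleophosmin work upstream of this, in the nucleolus, where ribosomal RNA is made and assembled with ribosomal proteins. Many messenger RNAs of this machinery begin with a run of pyrimidines, the 5′ terminal oligopyrimidine tract, through which their translation is regulated.

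The region around the annotated gene start is shown for the members because these genes share a function and the start sequence is a feature that their choice did not use. RefSeq promoter sequences (GRCh38.p14) are given for 7 of the 8 genes, with 2 starts listed for NPM1. PABPC1 was left out by its chromosome before the search, so its start was not examined here. Each line runs 5′ to 3′ on the gene's own strand over 40 bases before and 20 bases from the start, so the start is the first of the last 20 bases. Capitals mark a TATAA match before the start and the longest run of C and T that begins within 10 bases of the start.
EEF1A1, chr6:73521013-73521072, minus strand: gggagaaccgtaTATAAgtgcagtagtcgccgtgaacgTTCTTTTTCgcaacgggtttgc
EEF1G, chr11:62573872-62573931, minus strand: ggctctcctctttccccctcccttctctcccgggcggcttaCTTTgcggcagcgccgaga
EEF2, chr19:3985444-3985503, minus strand: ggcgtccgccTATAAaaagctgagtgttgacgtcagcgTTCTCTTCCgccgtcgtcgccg
EIF4A1, chr17:7572785-7572844, plus strand: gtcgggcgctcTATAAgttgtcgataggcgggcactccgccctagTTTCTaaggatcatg
EIF4A2, chr3:186783537-186783596, plus strand: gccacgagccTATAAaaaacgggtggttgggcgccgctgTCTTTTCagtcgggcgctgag
NPM1, chr5:171387809-171387868, plus strand: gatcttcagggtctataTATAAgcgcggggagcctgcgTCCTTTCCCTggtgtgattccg
NPM1, other start, chr5:171387076-171387135, plus strand: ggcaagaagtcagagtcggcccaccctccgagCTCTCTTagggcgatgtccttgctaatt
NCL, chr2:231464465-231464524, minus strand: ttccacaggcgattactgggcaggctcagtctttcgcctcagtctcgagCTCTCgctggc

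TATAA was present before the start in 5 of these 8 windows on the gene's strand and in 0 on the other strand. Among all 35116 RefSeq promoter windows of the same length the shares were 4.34% and 2.23%. The 8 windows stand for 7 genes, with both NPM1 starts and without PABPC1, while no chromosome was left out of the 35116. A run of at least 8 bases of C and T began within 10 bases of the start in 3 windows (EEF1A1 and EEF2 with 9 bases, NPM1 with 10), against 10.2% of all windows. On the other strand no member window held such a run, against 8.27% of all windows. Shorter runs were not counted, with 7 bases in EIF4A2 and at the other NPM1 start, 5 in EIF4A1 and NCL, and 4 in EEF1G. The count therefore does not settle which of these messenger RNAs begin with a pyrimidine tract. No match overlapped a run. A match is a description of the letters in this window, and the starts are RefSeq's, which need not be the ends of the Ensembl transcripts counted here.

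EEF2 and EEF1G, both of translation elongation, and PABPC1 were lower in every PRPF39 shRNA library than in any Ctrl shRNA library. They stood at 0.695, 0.773 and 0.688 of the control level. EIF4A1 was slightly higher, with every PRPF39 shRNA library above every Ctrl shRNA library. EEF1A1 and EIF4A2 were lower on average with a wide spread, and NPM1 and NCL differed by less than their standard errors. Groups that did not overlap were common in this series. In TPM (reads set against transcript length and library total) they were apart for 23.1% of all transcripts tested, 11.3% lower and 11.9% higher. Among the abundant ones, whose mean was at least 100 CPM (counts scaled to library size), 42.5% were apart, 16.7% lower and 25.8% higher. In bulk libraries a lower level cannot be told apart from fewer cells that carry the RNA. None of the 8 transcripts passed the test over the whole table (edgeR's quasi-likelihood test, adjusted by Benjamini-Hochberg over all rows, threshold 0.05). That test called 0.904% of the 97571 transcripts tested, and 4.54% of the abundant ones of at least 100 CPM. At an unadjusted p under 0.05, 5 of the 8 were lower and 0 higher, where 8.25% of all transcripts tested, and 16.6% of those of at least 100 CPM, were lower. The tools differed on the calls. DESeq2 called 5 of the 8 lower (EEF1A1, EEF1G, EEF2, EIF4A2 and PABPC1), against 4.23% of all transcripts. Limma-voom called only EEF2 lower, against 0.454%, and limma on log2(TPM + 1) called 0 lower, against 0.455%. These shares of DESeq2 and limma are over all 97571 transcripts and were not computed for the abundant ones alone. In that of DESeq2, transcripts left without an adjusted p by the tool's own filter on low means, if any, count as not called. With edgeR on the transcripts of at least 5 CPM, EEF2, EEF1G and PABPC1 were called lower, against 9.13% of 20216 transcripts. None of these alternatives called a member higher.

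Levels are given in TPM, which sets reads against transcript length and library total and therefore allows levels of different genes to be compared. In both groups the order by mean TPM was EEF1G, EEF2, EIF4A1, NCL, PABPC1, EIF4A2, NPM1 and EEF1A1. Within a group no 2 neighbours in this order had overlapping ranges of TPM. The order rests on the quantifier's effective lengths, from 0.665 of the annotated length in EIF4A2 to 1.41 times in EEF2. Whether neighbours would stay apart by annotated length was not computed. EEF1G ranked 65th and EEF2 ranked 108th of all transcripts by mean TPM, and EEF1A1 ranked 13287th. The 8 transcripts together held 0.364% ± 0.00696 of TPM in PRPF39 shRNA libraries and 0.453% ± 0.0337 in Ctrl shRNA libraries (SD, n = 3 each). The ranges, 0.36% to 0.372% and 0.422% to 0.489%, did not overlap. EEF1G (mean of 1627 against 2073 TPM) and EEF2 (1023 against 1437 TPM) had by far the largest differences, so the share mostly followed these 2. It was not set beside the share of other abundant transcripts.

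**Figure D1:**
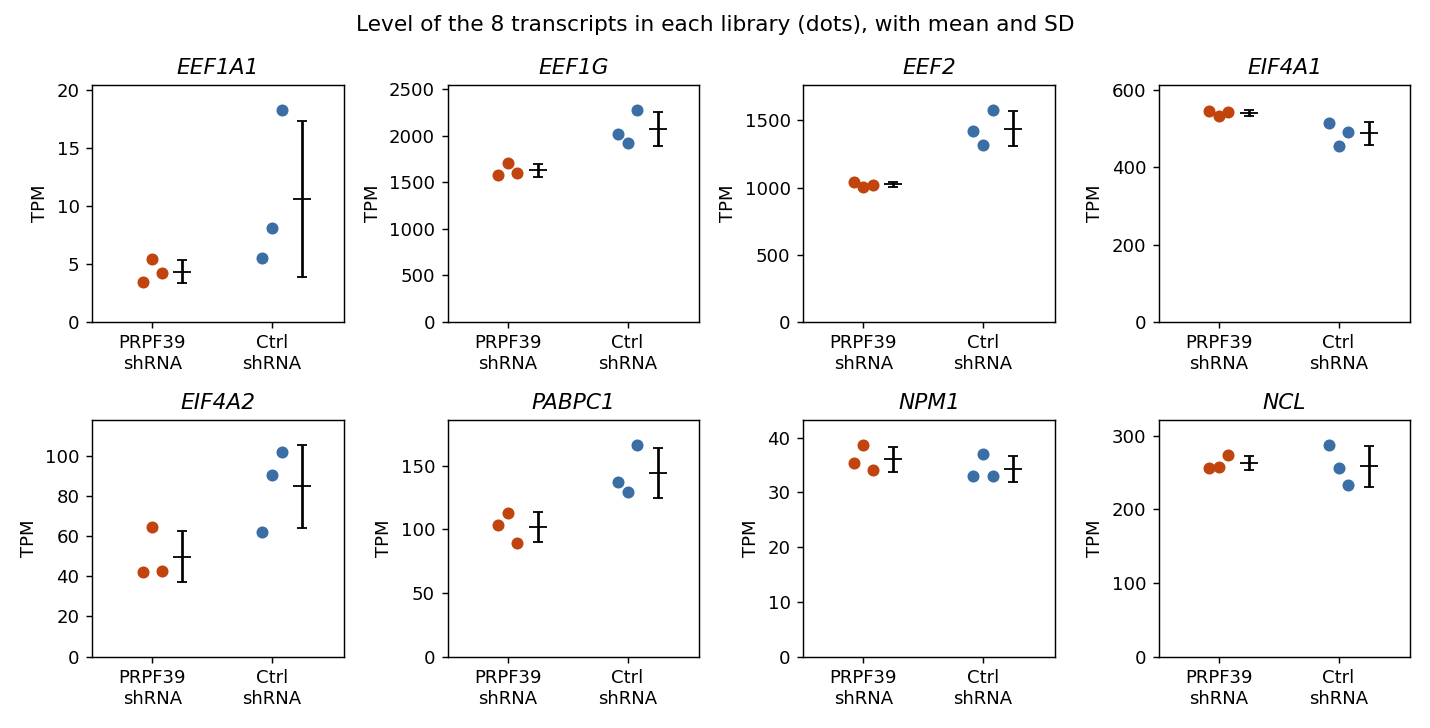
Level in TPM (vertical axes from 0) of the 8 transcripts in each library, PRPF39 shRNA in orange and Ctrl shRNA in blue; black marks are the mean and SD of 3 libraries. The PRPF39 shRNA dots of EEF2 (1006 to 1043 TPM), EEF1G and PABPC1 lie below all Ctrl shRNA dots, those of EIF4A1 lie above, and those of EIF4A2, NPM1 and NCL overlap with them.

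EEF2 (ENST00000309311, 3164 bases), the translocase, had the lowest adjusted p of the 8. It stood at 1043, 1006 and 1019 TPM in PRPF39 shRNA replicates 1, 2 and 3, against 1419, 1318 and 1575 TPM in Ctrl shRNA replicates 1, 2 and 3. The PRPF39 shRNA libraries lay close together, and the highest of them was well below the lowest control. The log2 fold change was -0.52 ± 0.10 (SE; adjusted p = 0.0684, edgeR). At least 430598 reads stood behind each value, so counting error was at most 0.152%, against a coefficient of variation of 1.81% among PRPF39 shRNA and 8.99% among Ctrl shRNA libraries. The gene lies on chromosome 19 from 3976056 to 3985463 (GRCh38.p14).

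EEF1G (ENST00000329251, 1523 bases) encodes the gamma subunit of eEF1B, the exchange factor of eEF1A, and was the most abundant of the 8. It stood at 1579, 1707 and 1595 TPM in PRPF39 shRNA replicates 1, 2 and 3, against 2018, 1927 and 2273 TPM in Ctrl shRNA replicates 1, 2 and 3. All PRPF39 shRNA libraries were below all controls. Its log2 fold change was -0.37 ± 0.11 (SE; adjusted p = 0.17, edgeR). Among the 8, EEF1G and EEF2 were the pair with the most similar profiles. After each transcript's own mean was subtracted, their log2 CPM differed by a root mean square of 0.09 over the 6 libraries. EEF2's own deviation from its mean was 0.28. EIF4A1 with NCL (0.1025) and PABPC1 with EEF2 (0.1031) were nearly as close. These profiles include the difference between the groups, and likeness to other transcripts was not computed. The EEF1G gene lies on chromosome 11 from 62559596 to 62573891.

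EEF1A1 (ENST00000316292), which encodes the main aminoacyl-tRNA carrier of most cells, had the lowest level and the widest spread. The transcript counted here stood at 3.41, 5.38 and 4.20 TPM in PRPF39 shRNA replicates 1, 2 and 3, against 5.49, 8.06 and 18.2 TPM in Ctrl shRNA replicates 1, 2 and 3. The groups were barely apart in TPM and overlapped in CPM, and Ctrl shRNA replicate 3 was far above the other libraries. The log2 fold change was -1.34 ± 0.46 (SE; adjusted p = 0.232, edgeR), and without Ctrl shRNA replicate 3 it was -0.71 (adjusted p = 0.453, edgeR). At least 1785 reads were assigned in each library, so counting error was at most 2.37%, against a coefficient of variation of 23.0% among PRPF39 shRNA and 63.5% among Ctrl shRNA libraries.

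The EEF1A1 values should be read as those of 1 transcript and not of the gene. The transcript is 4441 bases long, which is 84.1% of the 5283 bases that the RefSeq gene spans on chromosome 6 (73515750 to 73521032). For the other 7 the transcript length was 7.39% to 36.8% of the gene's span. RefSeq also lists 50 pseudogenes named after EEF1A1, and likewise 50 for NPM1, 13 each for EIF4A1 and PABPC1, 8 for EEF1G, 5 for EIF4A2, 2 for NCL and 0 for EEF2. Reads shared with such copies, or with other transcripts of the same gene, are divided by the quantifier's model. Whether other transcripts of these genes held more of the reads was not analysed here, so the description of each ID as its gene's main transcript was not checked for any of the 8.

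EIF4A1 and EIF4A2 are paralogs that encode the DEAD-box helicase of eIF4F. EIF4A1 (ENST00000293831, 1756 bases) stood at 544, 532 and 544 TPM in PRPF39 shRNA replicates 1, 2 and 3, against 515, 456 and 491 TPM in Ctrl shRNA replicates 1, 2 and 3. Every PRPF39 shRNA library was above every control, yet by little, with a log2 fold change of 0.12 ± 0.07 (SE; adjusted p = 0.44, edgeR). EIF4A2 (ENST00000323963, 1919 bases) stood at 42.2, 64.4 and 42.6 TPM in PRPF39 shRNA replicates 1, 2 and 3, against 61.9, 90.5 and 101.6 TPM in Ctrl shRNA replicates 1, 2 and 3. PRPF39 shRNA replicate 2 lay above Ctrl shRNA replicate 1, so the groups overlapped. The log2 fold change of EIF4A2 was -0.82 ± 0.29 (SE; adjusted p = 0.238, edgeR).

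The ratio of the 2 helicase transcripts within a library does not depend on how libraries are scaled to each other. EIF4A2 over EIF4A1 was 0.0775, 0.121 and 0.0784 in PRPF39 shRNA replicates 1, 2 and 3, against 0.12, 0.199 and 0.207 in Ctrl shRNA replicates 1, 2 and 3. The EIF4A1 transcript was thus the more abundant of these 2 in all 6 libraries, and other transcripts of the genes were not compared. The mean log2 ratio was -3.47 ± 0.37 with PRPF39 shRNA and -2.55 ± 0.44 with Ctrl shRNA (SD, n = 3 each), a difference of -0.92. The exact two-sided permutation test gave p = 0.2 (adjusted p = 0.4 over the 4 ratios compared), and 0.1 is the smallest p that 3 against 3 libraries allow. The overlap of the groups in this ratio was narrow and depended on the effective lengths: with reads per annotated length, or reads alone, the groups were apart, at the smallest p (exact permutation p = 0.1). EIF4A1 lies on chromosome 17 from 7572825 to 7579006, and EIF4A2 on chromosome 3 from 186783577 to 186789897.

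**Figure D2:**
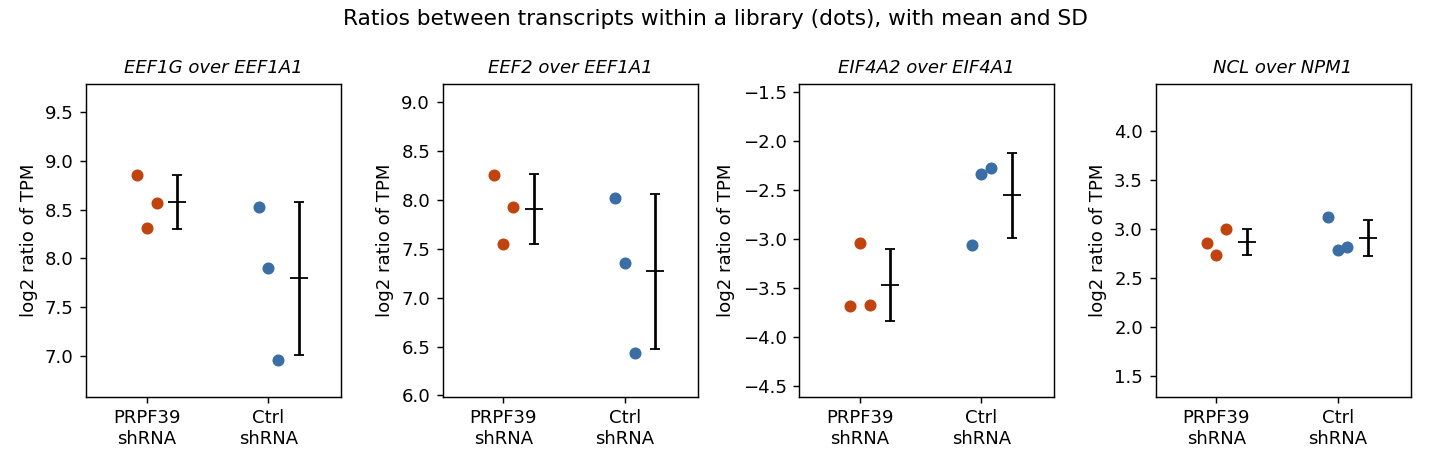
Log2 ratio of TPM between pairs of transcripts of related function in each library, PRPF39 shRNA in orange and Ctrl shRNA in blue, with mean and SD of 3 libraries; every panel spans the same number of log2 units. In each panel the groups overlap in TPM, and EIF4A2 over EIF4A1 has the widest distance between group means (-3.47 against -2.55).

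The 2 elongation ratios against EEF1A1 mostly showed the spread of EEF1A1. The mean log2 ratio of EEF1G over EEF1A1 was 8.58 ± 0.27 with PRPF39 shRNA and 7.80 ± 0.78 with Ctrl shRNA (SD, n = 3 each, exact permutation p = 0.2, adjusted p = 0.4). That of EEF2 over EEF1A1 was 7.91 ± 0.36 with PRPF39 shRNA and 7.27 ± 0.79 with Ctrl shRNA (SD, n = 3 each, exact permutation p = 0.3, adjusted p = 0.4). Without Ctrl shRNA replicate 3 the differences of 0.78 and 0.64 became 0.37 and 0.22.

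PABPC1 (ENST00000318607, 3485 bases), the poly(A)-binding protein of the cytoplasm, stood at 103, 113 and 89.2 TPM in PRPF39 shRNA replicates 1, 2 and 3, against 137, 129 and 166 TPM in Ctrl shRNA replicates 1, 2 and 3. The groups did not overlap. The log2 fold change was -0.54 ± 0.15 (SE; adjusted p = 0.16, edgeR), close in size to that of EEF2. The profile most like that of PABPC1 among the members was that of EEF2, at a root mean square difference of 0.10 in log2 CPM over 6 libraries, against 0.32 for PABPC1's own deviation from its mean.

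The nucleolar pair differed little between the groups. NCL (ENST00000322723, 4034 bases), nucleolin, stood at 256, 258 and 273 TPM in PRPF39 shRNA replicates 1, 2 and 3, against 287, 255 and 232 TPM in Ctrl shRNA replicates 1, 2 and 3. NPM1 (ENST00000296930, 1758 bases), nucleophosmin, a nucleolar chaperone of histones and ribosome assembly, stood at 35.4, 38.6 and 34.1 TPM in PRPF39 shRNA replicates 1, 2 and 3, against 32.9, 37.1 and 33.0 TPM in Ctrl shRNA replicates 1, 2 and 3. The 3 PRPF39 shRNA values of NCL lay within the range of the controls, and the ranges of NPM1 overlapped. The log2 fold change was 0.002 ± 0.089 for NCL (SE; adjusted p = 0.995, edgeR) and 0.03 ± 0.14 for NPM1 (SE; adjusted p = 0.942, edgeR). The sign of both depended on the processing, so neither has a direction.

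NCL exceeded NPM1 in every library, by 7.23, 6.67 and 8.01 times in PRPF39 shRNA replicates 1, 2 and 3 and by 8.72, 6.89 and 7.04 times in Ctrl shRNA replicates 1, 2 and 3. The mean log2 ratio was 2.87 ± 0.13 with PRPF39 shRNA and 2.91 ± 0.19 with Ctrl shRNA (SD, n = 3 each, exact permutation p = 0.7, adjusted p = 0.7). The NPM1 values are those of 1 transcript, and RefSeq lists 8 for this gene. NCL lies on chromosome 2 from 231453531 to 231464484, and NPM1 on chromosome 5 from 171387116 to 171410900.

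**Figure D3:**
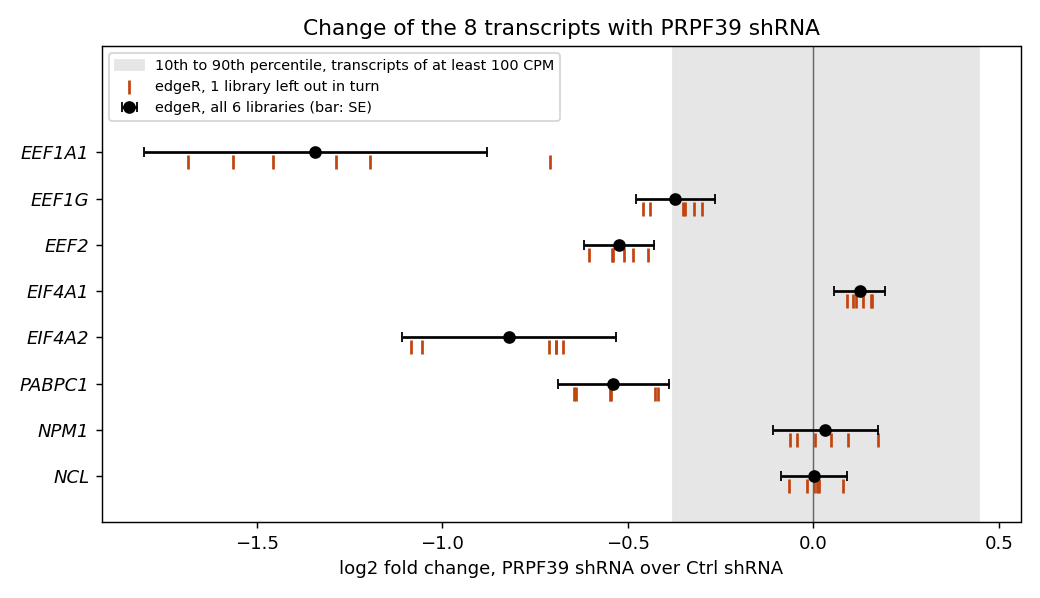
Log2 fold change of the 8 transcripts, PRPF39 shRNA over Ctrl shRNA: black dots with SE from edgeR on all 6 libraries, orange ticks with 1 library left out in turn, and in grey the 10th to 90th percentile (-0.38 to 0.45) of the 1630 transcripts of at least 100 CPM. EEF2, PABPC1, EIF4A2 and EEF1A1 lie to the left of the grey band, EEF1G lies at its edge, and EIF4A1, NPM1 and NCL lie near 0. EEF1A1, NPM1 and EIF4A2, with means of 21.9, 39.7 and 73.7 CPM, are below the abundance for which the band was drawn.

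Set against the rest of the table, the 8 transcripts had a median log2 fold change of -0.45, where that of all 97571 tested was -0.02 and that of the 1630 transcripts of at least 100 CPM was 0.02. Of the 8, 5 had a fold change below 0, which is 62.5%, against 51.7% of all tested and 46.4% of those of at least 100 CPM. EEF1A1, NPM1 and EIF4A2, with means of 21.9, 39.7 and 73.7 CPM, are themselves below that abundance. In TPM the groups did not overlap for 5 of the 8, 4 lower and 1 higher with PRPF39 shRNA. Among all transcripts tested 23.1% did not overlap (11.3% lower and 11.9% higher), and among those of at least 100 CPM 42.5% did not (16.7% lower and 25.8% higher). Non-overlap of abundant transcripts was therefore common, and no test set the members apart from them.

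The 5 lower transcripts also shared the order of their libraries in part. EEF1A1, EEF1G, EEF2, EIF4A2 and PABPC1 each had their highest value of all 6 libraries in Ctrl shRNA replicate 3, in TPM and in CPM alike. Within the PRPF39 shRNA group, all 8 members were highest in CPM in replicate 2, the library with the fewest counts, so this was not particular to the lower ones. In TPM, EEF1A1, EEF1G, EIF4A2, PABPC1 and NPM1 were highest there, and EEF2, EIF4A1 and NCL were not. Without Ctrl shRNA replicate 3 the log2 fold changes were -0.45 for EEF2, -0.30 for EEF1G, -0.42 for PABPC1 and -0.68 for EIF4A2, with adjusted p from 0.16 to 0.485 (edgeR). Without PRPF39 shRNA replicate 2 they were -0.54, -0.44, -0.65 and -1.08, with adjusted p from 0.197 to 0.253 (edgeR). The part of either library in the differences was not tested further.

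**Figure D4:**
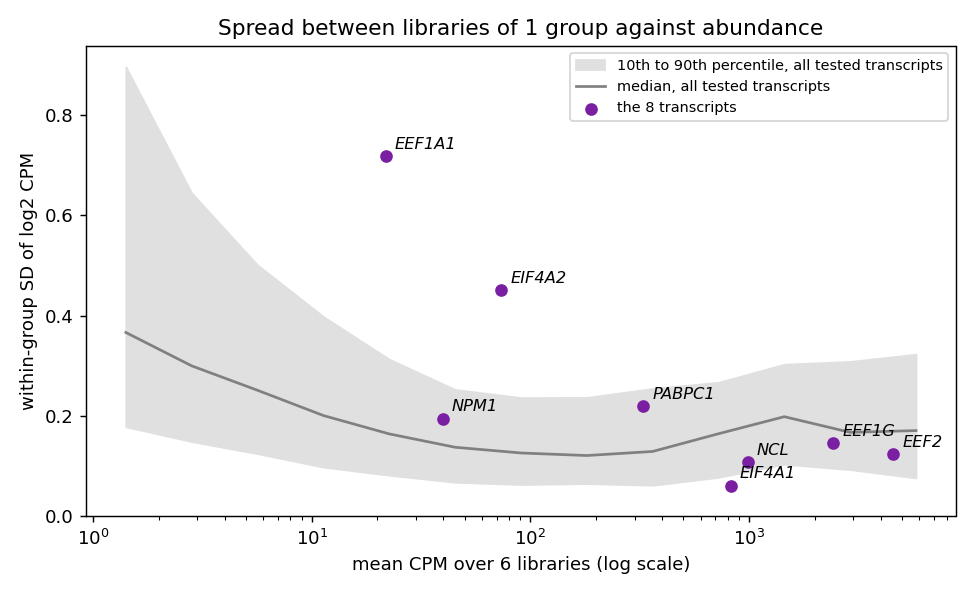
Within-group SD of log2 CPM (vertical) against mean CPM over 6 libraries (horizontal, log scale) for the 8 transcripts (purple), with the median (line) and the 10th to 90th percentile (grey) of all tested transcripts of at least 1 CPM in classes of abundance. EEF1A1 (0.72) and EIF4A2 (0.45) lie far above the grey band, and EIF4A1 (0.06) lies below it.

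The members differed widely in their spread between libraries of 1 group. The within-group SD of log2 CPM was 0.72 for EEF1A1 and 0.45 for EIF4A2, higher than in 99.4% and 97.4% of the 13988 transcripts of at least 10 CPM, whose median was 0.16. EIF4A1 had an SD of 0.06, with 5.53% of those transcripts below it. EEF2 was at 0.12, EEF1G at 0.15, NCL at 0.11, NPM1 at 0.19 and PABPC1 at 0.22. EEF1A1 and EIF4A2, the 2 with the largest fold changes, were also the 2 whose fold changes had the largest SE, 0.46 and 0.29. The effective length that the quantifier used was 0.771 to 0.783 of the annotated length for EEF1A1, 0.665 to 0.678 for EIF4A2, 0.755 to 0.779 for NPM1 and 0.9 to 0.921 for PABPC1. For EEF2 the effective length was 1.39 to 1.41 times the annotated one, which lowers its TPM relative to its reads in every library alike.

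Several of the genes carry small nucleolar RNA genes within their span, which are released from introns of the host transcript and guide the chemical modification of other RNAs. RefSeq places 5 in EIF4A2 (SNORD2, SNORA63B, SNORA81, SNORA63 and SNORA4), 3 in EIF4A1 (SNORA48, SNORD10 and SNORA67), 3 in NCL (SNORA75, SNORD20 and SNORD82) and 1 in EEF2 (SNORD37). The spans of EEF1A1, EEF1G, PABPC1 and NPM1 held 0. Among the 4 hosts the log2 fold changes were -0.82 for EIF4A2, 0.12 for EIF4A1, 0.002 for NCL and -0.52 for EEF2. Among the others they were -1.34 for EEF1A1, -0.37 for EEF1G, -0.54 for PABPC1 and 0.03 for NPM1. Lower values thus occurred in both sets, and libraries of polyadenylated RNA do not measure the small nucleolar RNAs themselves. In the start windows printed above, the runs of at least 8 pyrimidines stood in EEF1A1 and EEF2, which had lower values, and in NPM1, which had no direction. TATAA stood in EEF1A1, EEF2 and EIF4A2, which had lower values, in EIF4A1, which was slightly higher, and in NPM1.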

How the data were processed

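Polyadenylated RNA of HEK293 cells was sequenced in 3 PRPF39 shRNA and 3 Ctrl shRNA libraries, grouped by sample title. The authors deposited, per the file headers, estimated counts and TPM per transcript with its length and effective length in bases. Salmon 0.11.1, STAR 2.7.9a, DESeq2 1.32.0 and cutadapt 2.1 are named in the submitters' processing notes, as is build hg38; roles, options and annotation release are not given in the sources used here. Gene names of the 8 IDs came with their selection, since nothing used here pairs Ensembl transcripts with genes; a planned list of further translation and nucleolar genes was not analysed here for that reason.

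Counts were rounded and all transcripts fitted with edgeR 4.0.16 (R 4.3.3): filterByExpr with a minimum count of 10, TMM normalization, quasi-likelihood test of group, Benjamini-Hochberg adjustment over all transcripts. The SE was taken as the absolute log2 fold change over the root of its F statistic. CPM uses TMM factors, and log2 CPM a prior count of 2. The edgeR fit (also with the replicate block and at 5 CPM), voom and DESeq2 were tried on simulated counts, and the other steps were not. Alternatives used DESeq2 1.42.0, limma 3.58.1 (voom, and log2(TPM + 1) with a pseudocount of 1), other scalings and filters, effective-length offsets and left-out libraries. Ratios within a library were compared by exact permutation (scipy 1.17.1). All 8 members are named; likeness is the smallest root mean square difference of centred log2 CPM. The members, ratios and alternatives were chosen with earlier results of these data known. The counting errors given cover the number of reads only, while SD and SE include the spread between libraries. Pairs of libraries within a group had a chi-square per degree of freedom of at least 29.2 where resampling 1 library would give about 1, so none was treated as a duplicate.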

Additional observations from a re-analysis of the deposited data

How the results depend on the processing

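Over 22 alternatives each, the fold changes of EEF1A1, EEF1G, EEF2, EIF4A2 and PABPC1 stayed below 0 and that of EIF4A1 above 0, while NPM1 and NCL changed sign in 7 and 11. EdgeR on transcripts of at least 5 CPM called 3 of the 8 lower, EEF1G at -0.42, EEF2 at -0.58 and PABPC1 at -0.59, with 1729 higher and 1845 lower of all; NPM1 was at -0.013 and NCL at -0.044. DESeq2 called 5 lower, EEF1A1 at -1.33, EEF1G at -0.35, EEF2 at -0.51, EIF4A2 at -0.80 and PABPC1 at -0.52, with 4898 higher and 4126 lower of all. Limma-voom called 1, EEF2 at -0.53. NCL was at -0.0026 with effective-length offsets. No alternative called a member higher. Size factors (RLE), upper-quartile scaling, no filter and limma on TPM called 0.

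Same-numbered libraries deviated together at correlations of 0.158, 0.031 and 0, and the labels give no shared culture, so they were not taken as pairs. With the replicate block 0 members and 0 and 0 of all transcripts were called higher and lower (14264 at an unadjusted p under 0.05, edgeR). The block at 5 CPM, added after the data were seen, called 3 lower, EEF1A1 at -1.21, EEF2 at -0.57 and EIF4A2 at -0.85, with NPM1 at -0.0073, NCL at -0.042 and 1563 higher and 1820 lower of all. Sign flips of same-numbered differences gave the EIF4A2 over EIF4A1 ratio of -0.92 an exact p of 0.25, the smallest that 3 pairs allow.

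Leaving out each library called 0 members, and 0 to 14 higher and 0 to 12 lower of all. At 5 CPM, also added later, it called 5 lower without Ctrl shRNA replicate 1, 1 (EIF4A2) without PRPF39 shRNA replicate 2 and 0 in the other 4, with 393 to 2049 higher and 488 to 2220 lower of all. Over both filters the fold changes without a library were -1.76 to -0.71 for EEF1A1, -0.51 to -0.30 for EEF1G, -0.66 to -0.45 for EEF2, -1.13 to -0.68 for EIF4A2, -0.70 to -0.42 for PABPC1, -0.11 to 0.17 for NPM1 and -0.093 to 0.080 for NCL. The ratio of NCL over NPM1 ran from -0.11 to 0.065 on the log2 scale. The share held by the 8 differed by -0.0886 percentage points of TPM and -0.23 of reads. The cause of these differences was not tested. Counting error of the 8 was at most 2.37% per library; other effects of depth were not tested.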
